A study of Mus musculus with 70 samples.

Results

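The replication-dependent histone genes were taken as all rows of the gene count table whose GENCODE M21 symbol begins with Hist1h, Hist2h, Hist3h or Hist4h and whose gene type is protein coding. This rule used no measured value and gave 67 genes of 52636 rows, 6 of the linker histone class H1, 18 of H2A, 18 of H2B, 12 of H3 and 13 of H4. The genes lie in 4 places of the mouse genome (mm10, GRCm38). On chromosome 13, 54 genes lie between positions 21715763 and 23934851. Chromosome 3 holds 10, chromosome 11 holds 2, and Hist4h4 stands alone on chromosome 6.

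Histone proteins package DNA: H2A, H2B, H3 and H4 form the core of the nucleosome, and H1 binds the DNA that enters and leaves it. Replication-dependent histone genes supply new histones when DNA is copied in S phase. Their mRNAs end in a short hairpin, the stem-loop, which is bound by the protein SLBP. The pre-mRNA is cut just after the stem-loop, without addition of a poly(A) tail. Libraries made from total RNA capture such transcripts, which libraries selected on poly(A) largely miss. Some members, Hist1h1c, Hist1h2bc and Hist2h2be among them, are also known to give polyadenylated transcripts in differentiated cells.

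Total RNA was sequenced from T cells, B cells and both kinds of monocyte, Ly6C-high and Ly6C-low, sorted from blood of male C57BL/6J mice that were 7 to 8 weeks old. Control mice (CON) were not stressed. Chronic social defeat stress (CSDS) lasted 10 days for the stressed mice, in which a mouse meets an aggressive CD-1 male each day, and were called susceptible (SUS) where their social interaction ratio was under 1 and resilient (RES) where it was 1 or above. SUS and RES mice thus had the same stress and were told apart by behaviour afterwards. The labels name no transgene and no drug in any group. There were 6 libraries in each combination of cell type and stress group, except 4 of Ly6C-low CON, 5 of B cell RES and 5 of T cell RES.

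The sample labels name brain as the source, but the study's methods describe sorted blood cells, and each cell type's libraries held more counts of that type's markers than any other library. Libraries 52 and 70 went against their labels and were left out: the library labelled B cell RES held 7.91 CPM (counts scaled to a common library size of 1e6) of 5 B cell markers and 1485 of 5 T cell markers, and the library labelled T cell RES held 3552 and 13.2. The total per library of the other 68 ranged from 19769835 to 67038231 counts, of which 5612 to 95792 fell on the histone genes. The shares of counts in mitochondrial genes and in the ribosomal repeat loci Gm23935 and Gm26917 ranged from 3.66% to 18.4% and from 0.395% to 41%. CPM below is scaled by edgeR's trimmed mean of M-values (TMM). In sorted bulk samples, fewer cells with a transcript and less RNA per cell cannot be told apart.

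A stem-loop was found by its letters in the annotated transcripts of 46 of the 67 genes. The 16 bases of the hairpin are in capitals and flanking bases in lower case, and each sequence is written 5′ to 3′ on the gene's strand. They are shown because the first stem bases separated H4 from the other classes: all 34 stem-loops of H1, H2A, H2B and H3 began with GGCTC, whereas 10 of H4 began with GGCCC and 2 with GGTCC. The genes shown from chromosome 13 are Hist1h1c (chr13:23739506-23739533, + strand), Hist1h2bh (chr13:23542922-23542949, − strand), Hist1h3f (chr13:23544926-23544953, + strand) and Hist1h4j (chr13:21735431-21735458, + strand). Hist2h4 lies on chromosome 3 (chr3:96262933-96262960, − strand) and Hist4h4 on chromosome 6 (chr6:136803992-136804019, − strand).
Hist1h1c: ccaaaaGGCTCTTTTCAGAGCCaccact
Hist1h2bh: cccaaaGGCTCTTTTCAGAGCCactcaa
Hist1h3f: caaaacGGCTCTTTTAAGAGCCacctcc
Hist1h4j: cctaaaGGTCCTTTTCAGGACCaccaca
Hist2h4: cctaacGGCCCTTTTTAGGGCCaaccac
Hist4h4: cacaaaGGCCCTTTTCAGGGCCcacaaa

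The 21 genes without a match included 13 with at least 1 CPM in some group: Hist1h1a, Hist1h1b, Hist1h2ai, Hist1h2ak, Hist1h2bc, Hist1h2bl, Hist1h2bn, Hist1h2bq, Hist1h2br, Hist2h2be, Hist1h3h, Hist1h3i and Hist1h4k. No match says only that these letters are not in the annotated transcript. In 23 genes the stem-loop lay within 100 bases of the annotated end, and in 23 genes the annotated transcript ran over 100 bases past it. The longer transcripts held 84.4% of the summed CPM of all members in unstressed mice, at a median level of 5.08 CPM per kilobase of exon. Those that ended near the stem-loop held 7.92% at a median of 2.12 CPM per kilobase, and those without a match held 7.63% at a median of 2.08. Hist1h1c had 840 annotated bases after its stem-loop and Hist4h4 had 2445.

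Per kilobase of exon, the class H1 had the highest level in unstressed mice and H2A the lowest. The 6 H1 genes held 45% of the summed CPM per kilobase and the 13 H4 genes 29.4%. The 18 H2B genes held 12.7%, the 12 H3 genes 9.01% and the 18 H2A genes 3.89%. All 18 H2A genes overlap an annotated gene on the opposite strand, against 0 H1 genes and 1 each of H2B, H3 and H4. A median of 64.5% of the 100-base windows of an H2A gene also occur in another gene, against 0.396% for H1. How such reads were counted is not given, so the level of H2A as a class is uncertain. Hist1h1c, which encodes the linker histone H1.2, was the highest single gene and held 41.9% of the summed CPM of all members, averaged over the 4 cell types. Its share was 29% ± 3.95 (SD, n = 6) in Ly6C-high monocytes and 45.1% ± 2.96 (SD, n = 6) in T cells.

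**Figure D1:**
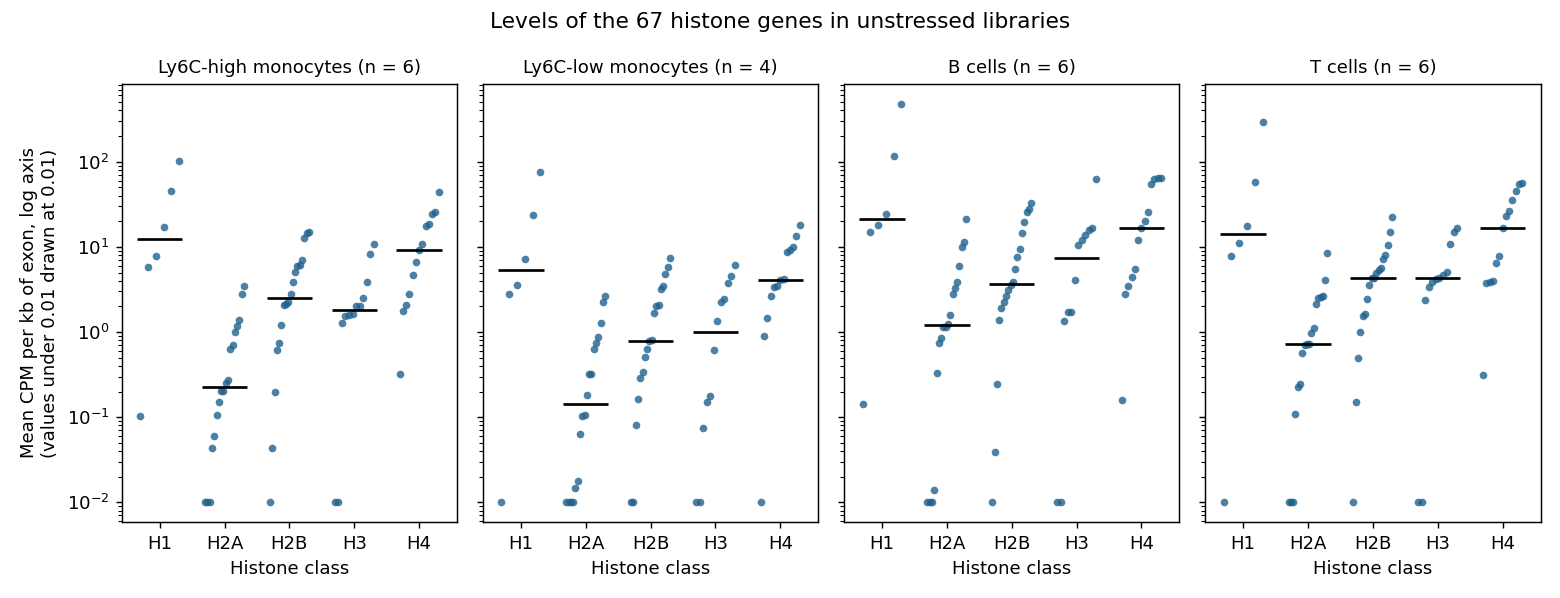
Mean CPM per kilobase of exon on a log axis for each of the 67 genes in unstressed (CON) libraries, by histone class, in 1 panel per cell type. Each point is a gene, the bar is the class median, and values under 0.01 are drawn at 0.01. In every panel the highest point is Hist1h1c, at 482 in B cells, 293 in T cells, 103 in Ly6C-high and 75.5 in Ly6C-low monocytes. The class median is lowest for H2A, a class whose level is uncertain for the overlaps given above.

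Among H1 genes, Hist1h1e followed Hist1h1c in unstressed mice with 45 ± 11.1 CPM per kilobase (SD, n = 6) in Ly6C-high monocytes and 116 ± 53.6 (SD, n = 6) in B cells. Hist1h1b came next by the mean over cell types, at 16.9 ± 7.77 and 18.3 ± 18.9 CPM per kilobase in the same cell types, which do not differ beyond their spread. This rank depends on the annotated length. By CPM alone, Hist1h1d was higher than Hist1h1b (59.2 against 10.3, mean over cell types). Hist1h1d has 7425 annotated exon bases, 4884 of them after its stem-loop, against 743 for Hist1h1b. Among H4 genes, Hist1h4d had 43.9 ± 13.4 CPM per kilobase in Ly6C-high monocytes and 65.2 ± 30.8 in B cells. Hist1h4h and Hist1h4m followed with 25.8 ± 13 and 18.5 ± 7.96 CPM per kilobase in Ly6C-high monocytes, within each other's spread.

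The other classes were lower. Among H3 genes, Hist1h3e stood first with 63 ± 31.5 CPM per kilobase in B cells and 10.7 ± 4.24 in Ly6C-high monocytes (SD, n = 6 each), before Hist1h3i and Hist1h3f. Among H2B genes, Hist1h2bn, Hist1h2bg and Hist1h2bb lay between 12.8 and 14.8 CPM per kilobase in Ly6C-high monocytes and overlapped in their spread. The 3 highest H2A genes were Hist2h2ac, Hist1h2ai and Hist1h2ak, and Hist2h2ac reached 21.1 ± 10.4 CPM per kilobase in B cells.

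Of the 67 genes, 61 had a count in some library, 50 reached 1 CPM in some group and 27 reached 10 CPM. Hist1h2aa, Hist2h2aa1, Hist2h2aa2, Hist2h2bb, Hist2h3b and Hist2h3c1 had no count in any of the 68 libraries, and in 5 of these 6 over 50% of the exon bases lie inside exons of another annotated gene. Antisense genes over them did have counts, 9487 in all for Gm20633 and 9807 for Gm20632. Only 2 genes with counts, Hist2h2ab and Hist1h4b, have such an overlap. Histone genes also share sequence: 25 of the 67 share over 50% of their 100-base windows with another gene, the median share is 64.5% for H2A and 0.396% for H1, and the sources used here do not give how reads with several matches or on the other strand were counted. Levels of single H2A, H2B and H3 genes are therefore uncertain, as are those of the H4 genes Hist1h4m, Hist1h4n and Hist1h4k, which share 88.1%, 80.7% and 64.3% of their windows. So is the split between Hist1h2be and Hist1h1e, whose annotated exons overlap. Among those with counts, Hist1h4d, Hist2h4, Hist1h1a, Hist1h1b, Hist1h1t and Hist2h2be share no window with another gene.

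Promoter windows (250 bases before to 50 after the annotated start) from RefSeq, build GRCm38.p6, were found for 62 genes and compared with all 32851 windows, on both strands. The sequence CCAAT was present in 50 of 50 windows of H1, H2A, H2B and H3 genes and in 3 of 12 of H4, against 37.4% of all windows. The octamer ATTTGCAT, which POU2F1 binds, was found in 7 of 18 H2A and 6 of 16 H2B windows, in no other class, and in 1.74% of all windows. Some H2A and H2B genes, such as Hist1h2ae and Hist1h2bg, start close together on opposite strands. Their windows can overlap, so the same match can count for both classes. AAACACA, the H1 box, was found in 5 of 6 H1 windows, 2 of 18 H2A and 2 of 16 H2B windows, against 7.18% of all windows. The letters GGTCCG, chosen after the H4 windows were seen, were in 11 of 12 H4 windows and 2 of 50 others, against 8.25% of all windows. TATAAA was in 35 of 62 windows and in 13.6% of all.

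The windows of Hist1h1c (chr13:23738557-23738856, + strand) and Hist4h4 (chr6:136804382-136804681, − strand) are printed. For these 2 of 60 members alone the SUS effect in Ly6C-high monocytes was called different from the mean effect in the other cell types, as given below. Of all genes 7.4% were so called, and neither member passed without SUS library 14. Capitals mark AAACACA and CCAAT in Hist1h1c and GGTCCG in Hist4h4. These matches are descriptions and not shown sites.
Hist1h1c: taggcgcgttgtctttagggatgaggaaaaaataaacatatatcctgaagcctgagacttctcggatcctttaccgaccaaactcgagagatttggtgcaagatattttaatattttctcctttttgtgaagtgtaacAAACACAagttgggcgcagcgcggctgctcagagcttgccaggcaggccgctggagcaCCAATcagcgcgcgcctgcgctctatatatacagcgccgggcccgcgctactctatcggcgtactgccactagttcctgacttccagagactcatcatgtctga
Hist4h4: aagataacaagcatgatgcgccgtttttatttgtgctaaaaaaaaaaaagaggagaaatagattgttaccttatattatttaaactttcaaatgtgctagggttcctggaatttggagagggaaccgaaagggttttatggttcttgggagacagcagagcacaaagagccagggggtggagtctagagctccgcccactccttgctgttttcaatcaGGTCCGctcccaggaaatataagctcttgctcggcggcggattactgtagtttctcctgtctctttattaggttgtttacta

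To ask where histone transcripts are found among blood leukocytes, unstressed libraries were compared between cell types with edgeR's quasi-likelihood test. A gene was called where its p, adjusted by Benjamini-Hochberg over all genes tested, was under 0.05 and its log2 fold change was over 1 in size. Monocytes held less histone RNA than lymphocytes. The summed level of the 67 genes was 549 ± 103 CPM in Ly6C-high (SD, n = 6) and 316 ± 130 in Ly6C-low monocytes (SD, n = 4), against 1670 ± 865 in B cells and 1018 ± 95.9 in T cells (SD, n = 6 each). The highest unstressed monocyte library had 711 CPM and the lowest unstressed lymphocyte library 845, so the lineages did not overlap. The B cell mean was raised by library 38, at 3338 CPM, and the next B cell CON library had 1691 CPM.

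**Figure D2:**
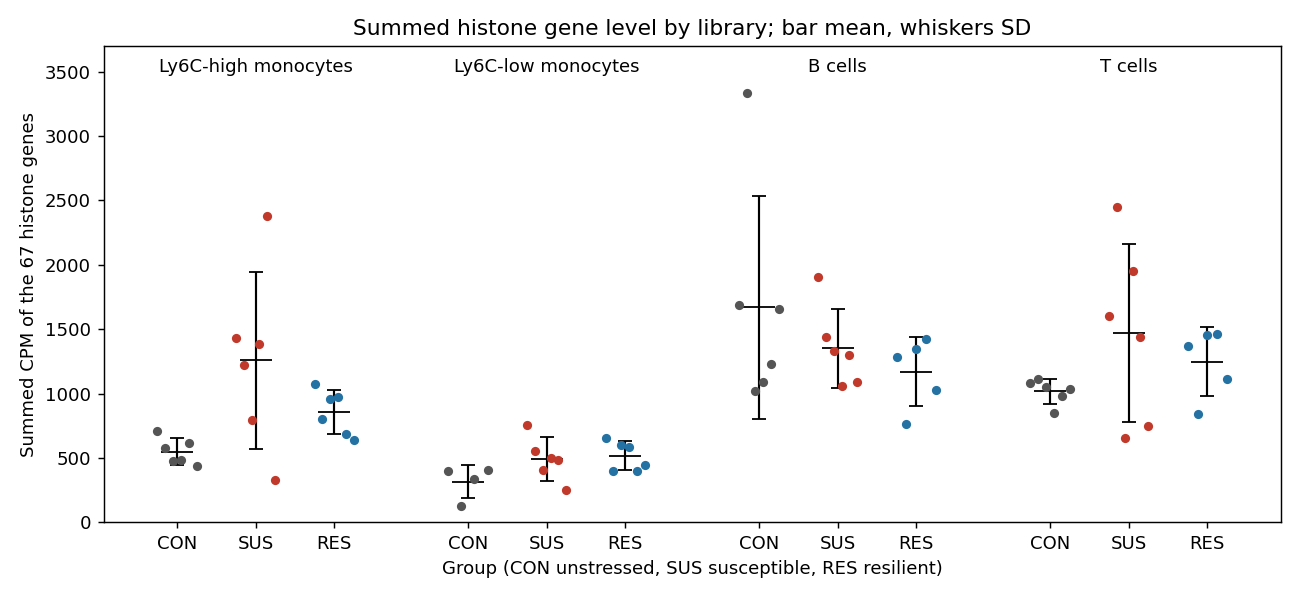
Summed CPM of the 67 histone genes in each of 68 libraries, by cell type and stress group. Points are libraries, the bar is the mean and the whiskers 1 SD. Unstressed Ly6C-high libraries lie between 440 and 711 CPM, whereas SUS libraries of that type run from 328 to 2378.

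Between monocytes and lymphocytes, 41 of the 55 histone genes tested were lower in monocytes and 0 were higher, with a median log2 fold change of −1.5 against 0.01 over all 21032 genes. Of all genes, 32.1% were called and 14% were called lower. Every class took part, with 5 of 5 tested H1 genes, 7 of 12 H2A, 11 of 16 H2B, 9 of 10 H3 and 9 of 12 H4. Hist1h1c was lower by 2.07 ± 0.25 on the log2 scale (SE, adjusted p = 5.80e-07). Hist4h4 had a log2 fold change of −1.76 ± 0.25 (adjusted p = 8.12e-07). Hist1h3f (−2.42), Hist1h4m (−2.07), Hist1h3e (−1.96) and Hist2h4 (−1.78), which encode H3 and H4, were also lower. Other RNAs without poly(A) moved the same way: Rn7sk, the RNA of the 7SK particle, had a log2 fold change of −1.16 and Rpph1, the RNA of RNase P, −1.85. Red cell markers were lower in monocytes in 7 of 7 genes, at a median of −1.73. The ribosomal repeat loci Gm23935 and Gm26917 took 3.41% ± 2.85 of counts in Ly6C-high CON and 3.47% ± 5.01 in Ly6C-low CON libraries, against 24.5% ± 10.4 in B cell and 17.7% ± 10 in T cell CON libraries (SD). The part of these measures in the histone result was not tested.

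Between the kinds of monocyte, some histone genes were higher in the Ly6C-high cells. In Ly6C-high monocytes 8 of 55 histone genes were higher and 0 lower, against 11.2% of all genes called and 4.46% called higher. Hist1h2bq, an H2B gene, measured 3.1, 3.94 and 5.9 CPM (lowest, median, highest) in Ly6C-high libraries and 1.46, 0.904, 1.57 and 1.19 CPM in the 4 Ly6C-low libraries, which did not overlap. Its log2 fold change was 1.73 ± 0.38 (SE, adjusted p = 0.00142), and its sequence is shared over 94.8% of its windows. Hist1h1b, encoding H1.5, measured 7.27, 10 and 21.9 CPM in Ly6C-high and 0.941, 2.49, 1.17 and 3.69 CPM in Ly6C-low libraries (log2 fold change 2.60 ± 0.66, adjusted p = 0.00649). Hist1h2bn (2.11) and Hist2h2be (1.29) were also higher. Hist1h3c, Hist1h3b, Hist1h2bl and Hist1h2bj passed too, but the first 3 of these had at most 0.198 CPM in every Ly6C-low library, so the size of their fitted fold changes depends on the prior count. Without Ly6C-low library 21, 16 members were called, and 32 were called when the contrast was taken over all 68 libraries. Rn7sk (1.37) and Rmrp (1.97) were also called higher in Ly6C-high monocytes, while Rpph1 (1.66, adjusted p = 0.0654) did not pass. Higher there too were 3 of 5 neutrophil markers tested, whose summed level was 9.58 to 358 CPM in Ly6C-high and 3.07 to 24.8 in Ly6C-low libraries, and 1 of 4 granule progenitor markers, at 3.74 to 32.7 and 0 to 4.15 CPM. The part of these measures in the result was not tested.

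B cells exceeded T cells in 8 of 55 histone genes, and 0 were lower, with 20.2% of all genes called and 8.98% called higher in B cells. The H3 gene Hist1h3e measured 24.1, 47.7 and 102 CPM in B cells (lowest, median, highest) and 9.58, 14 and 17.1 CPM in T cells, without overlap (log2 fold change 1.90 ± 0.35, adjusted p = 0.000144). Hist1h3d measured 9.01, 13.2 and 22.8 CPM in B cells against 1.94, 2.75 and 4.81 CPM in T cells (2.28 ± 0.46, adjusted p = 0.000262). Hist1h2bg (1.59), Hist1h4i (1.59), Hist1h2bf (1.83) and Hist1h2bc (1.00) were among the others. Without B cell library 35 or library 38, 5 members were called.

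The main question of the design was how stress groups differ within a cell type. In Ly6C-high monocytes, histone genes were higher in SUS than in CON mice. Of 52 members tested, 15 rose and 0 fell, while 3.45% of all 16955 genes were called and 2.28% were called higher. The called members were 3 H1 genes, 5 H2B, 4 H3 and 3 H4 genes, with no H2A gene among 10 tested. The H2A genes tested had log2 fold changes of 1.24 (Hist1h2ai) to 4.57 (Hist1h2an), except Hist3h2a at −0.47. The SE was 1.27 for Hist1h2ai and 1.85 for Hist1h2an, and the class summed to 11.3 ± 4.72 CPM in CON (SD, n = 6). The median log2 fold change was 1.38 over the 52 members and −0.05 over all genes, 50 of the 52 lay above 0, and 35 had an unadjusted p under 0.05 against 26.5% of all genes. Summed CPM was 549 ± 103 in CON and 1257 ± 690 in SUS (SD, n = 6 each), with library 14 highest and library 17, at 328, below every CON library.

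Hist4h4, the H4 gene on chromosome 6, measured 3.23, 6.42 and 7.12 CPM in CON (lowest, median, highest), 8.22, 14.8 and 27.6 CPM in SUS and 7.78, 10.8 and 16.4 CPM in RES. Every one of the 6 SUS libraries exceeded the highest CON library, and it was the only member for which that held, against 6.96% of all genes whose SUS and CON libraries did not overlap. It rose by a log2 fold change of 1.48 ± 0.29 (SE, adjusted p = 0.00231). Hist1h1c measured 110, 164 and 207 CPM in CON and 98.8, 349 and 813 CPM in SUS. Here 5 of 6 SUS libraries exceeded the highest CON library and library 17 lay below them, and the log2 fold change was 1.27 ± 0.31 (adjusted p = 0.00933).

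Hist1h2bc, an H2B gene that is also transcribed into polyadenylated RNA, measured 4.13, 7.15 and 11.1 CPM in CON and 5.52, 20 and 43.1 CPM in SUS (log2 fold change 1.58 ± 0.37, adjusted p = 0.00746). Hist1h2bh measured 1.23, 1.72 and 3.88 CPM in CON and 2.14, 5.23 and 18.8 CPM in SUS (1.97 ± 0.49, adjusted p = 0.0103). In both genes the groups overlapped, with 5 and 4 of 6 SUS libraries above the highest CON library. The linker histone genes Hist1h1d (1.32 ± 0.36, adjusted p = 0.0173) and Hist1h1e (1.02 ± 0.28, adjusted p = 0.0198) rose as well. The other called genes were Hist1h3a (2.36), Hist1h3f (1.99), Hist1h3e and Hist1h3d (1.37 each), Hist1h2br (1.78), Hist1h2bb (1.41), Hist1h2bq (1.37), Hist1h4m (1.39) and Hist2h4 (1.19). By place of the stem-loop, 9 of the 15 had annotated ends over 100 bases past it, 3 had ends near it and 3 had no match.

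**Figure D3:**
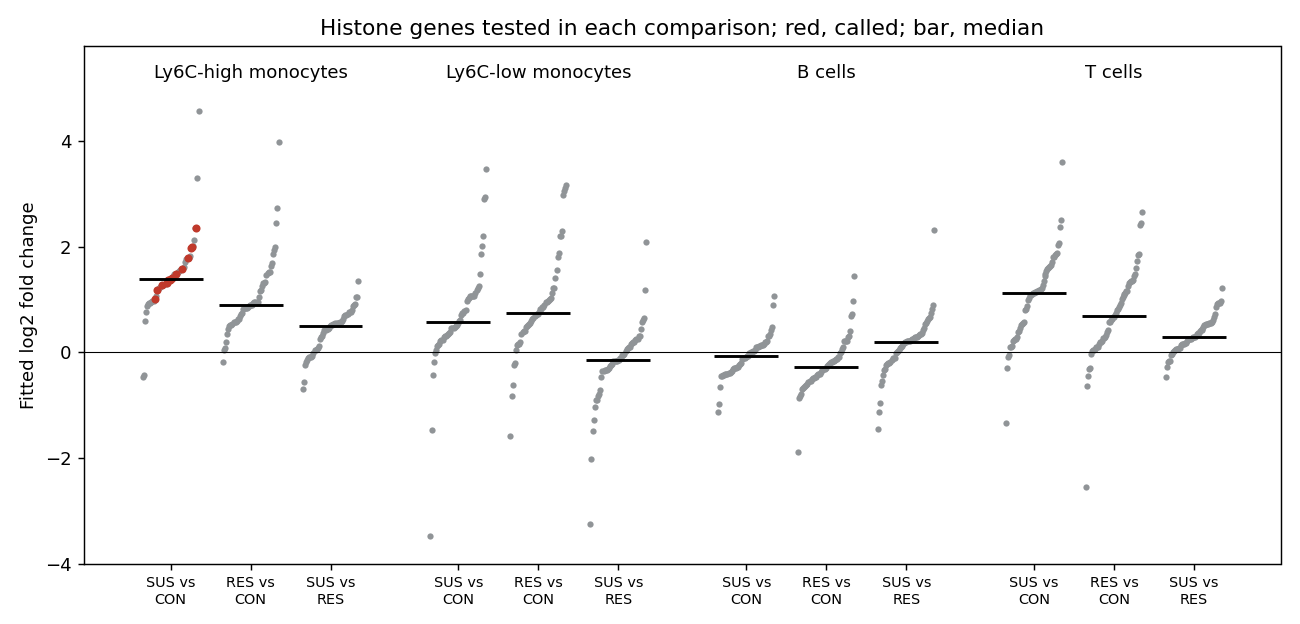
Fitted log2 fold change of every histone gene tested in the 12 comparisons between stress groups. Each point is a gene, red points passed both thresholds and the bar is the median. Red points appear only for Ly6C-high SUS against CON (15 genes, median 1.38), and the next highest medians are 1.13 for T cell SUS and 0.89 for Ly6C-high RES against CON.

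**Figure D4:**
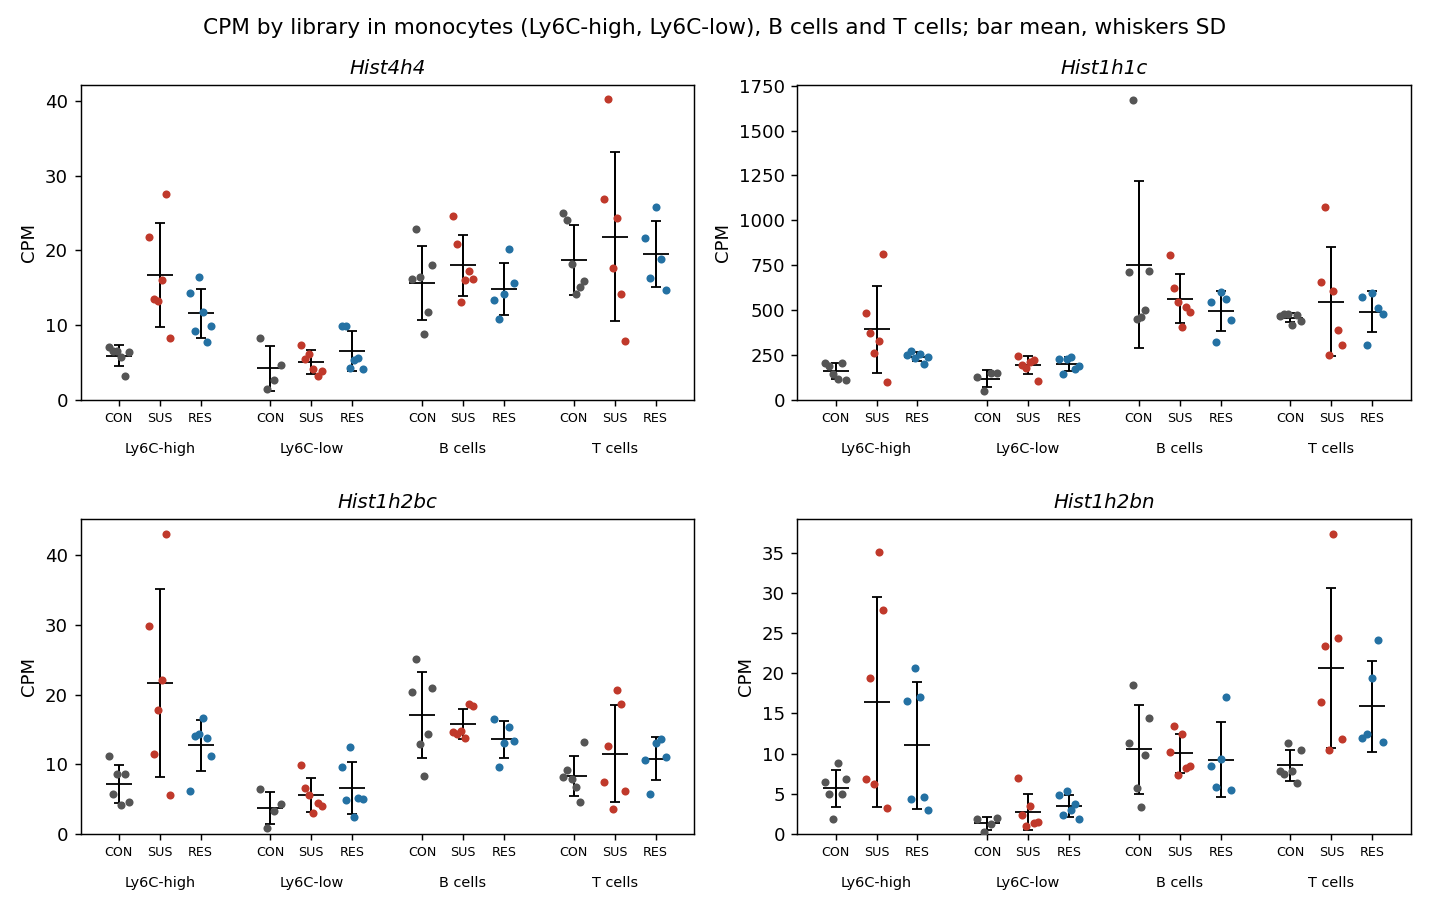
CPM of Hist4h4, Hist1h1c, Hist1h2bc and Hist1h2bn by library, cell type and stress group, with a bar at the mean and whiskers of 1 SD. Hist4h4 in Ly6C-high monocytes reads 3.23 to 7.12 in CON and 8.22 to 27.6 in SUS, whereas Hist1h1c in B cells has its highest value, 1673, in a CON library.

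The call rested partly on single libraries, and fewer members were called once other RNAs entered the fit as covariates. Without SUS library 14, 3 members were called, and without SUS library 17, 25. The counts were 9 without CON library 4, 7 without CON library 7, 9 without CON library 10 and 9 without SUS library 11. Hist4h4, Hist1h2bc and Hist1h2bh were called whichever of the 18 Ly6C-high libraries was left out. With the mean level of 7 red cell markers as a covariate, added after the data were seen, 0 histone genes and 1 gene of all were called, by the same test, and the members' median log2 fold change was 1.16. With the mean of Rn7sk, Rmrp and Rpph1, 3 other RNAs without poly(A), as a covariate, 1 member and 300 genes of all were called and the median was 0.66.

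Of these measures, the red cell markers and Rn7sk were themselves higher in SUS, while Rmrp (0.15) and Rpph1 (0.73, adjusted p = 0.332) did not pass. The red cell markers were called higher in 7 of 7 genes, with a median log2 fold change of 2.09, and their summed level was 343 to 1216 CPM in CON, 1097 to 8996 in SUS and 1077 to 4351 in RES. Hba-a1 (2.12), a globin gene, and Slc4a1 (4.03), the anion exchanger of the red cell membrane, were among them. Rn7sk was 3751 to 5039 CPM in CON, 5847 to 7540 in SUS and 5447 to 7303 in RES, a log2 fold change of 0.55 for SUS that was under the fold threshold (adjusted p = 0.00379). Rpph1 was highest in library 14, at 8998 CPM, and 748 in library 17, the libraries with the highest and lowest histone level. Of 5 granule progenitor markers 1, Prtn3 (3.54), rose, and their summed level was 3.74 to 32.7 CPM in CON and 12.1 to 146 in SUS. Of 5 platelet markers Ppbp (2.31) rose, and of 5 neutrophil markers tested 0 passed by edgeR or DESeq2. Only Retnlg had an unadjusted p under 0.05 by edgeR, and it was lower in SUS (−2.37), while Cxcr2, Camp, Ltf and Ngp lay above 0. The neutrophil markers summed to 9.58 to 358 CPM in CON and 19.7 to 1179 in SUS. The markers of Ly6C-high monocytes themselves summed to 3921 to 5304 CPM in CON and 6133 to 9100 in SUS, and 1 of 4, Chil3 (1.31), was called. Rn7sk did not overlap between CON and SUS libraries, and the red cell markers overlapped only between 1097 and 1216 CPM. The fits with covariates therefore cannot tell the part of these RNAs from that of the stress group. The part of red cell RNA, of other cells or of small structured RNAs in the histone result was not tested.

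**Figure D5:**
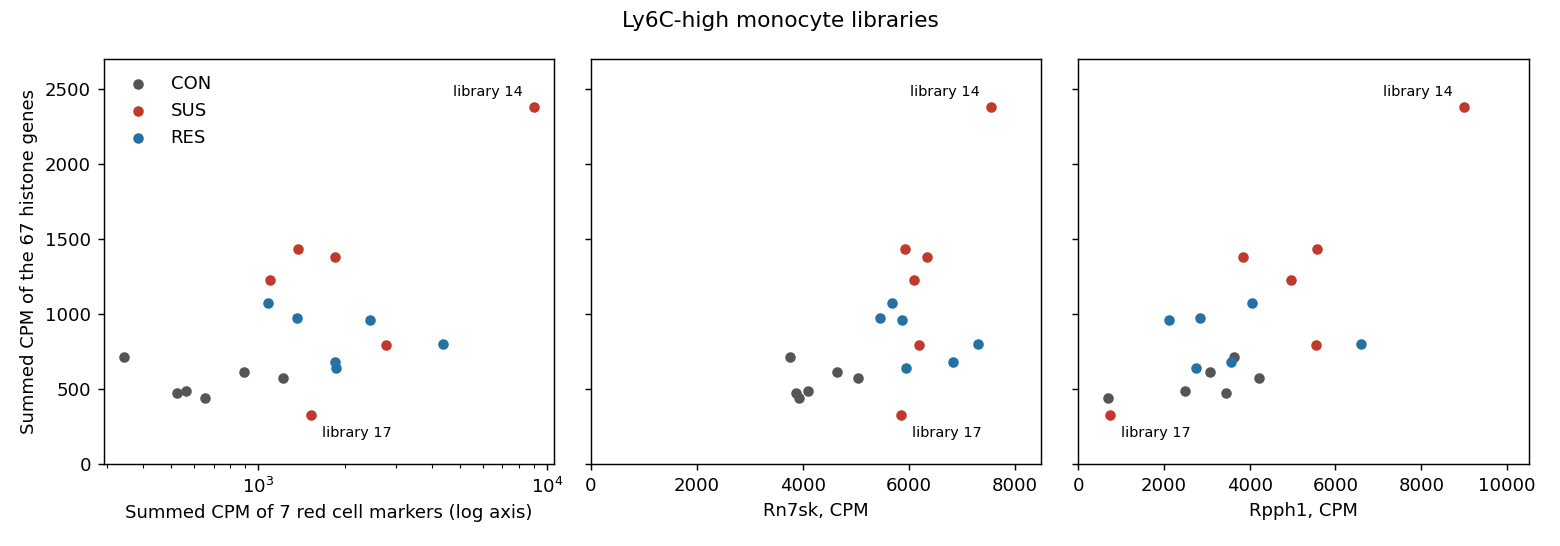
Summed CPM of the 67 histone genes in the 18 Ly6C-high monocyte libraries against the summed CPM of 7 red cell markers (log axis), Rn7sk and Rpph1. Each point is a library, coloured by stress group. Library 14 is highest on every axis, and library 17 has the lowest histone level of the SUS libraries with 748 CPM of Rpph1.

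RES mice lay between CON and SUS mice in Ly6C-high monocytes, and these comparisons share their libraries. Summed CPM was 855 ± 174 in RES (SD, n = 6), with a range of 642 to 1073. Against CON, edgeR called 0 of 52 members and 0.997% of all genes, DESeq2 called 1 (2.61% of all genes), and 16 members had an unadjusted p under 0.05 against 21.2% of all genes. The median was 0.89. Hist1h2be had the smallest p, with a log2 fold change of 0.84 ± 0.24 (adjusted p = 0.0401), under the fold threshold, and Hist4h4 measured 0.95 ± 0.29 (adjusted p = 0.0527). The 15 members called in SUS had log2 fold changes of 0.51 to 1.63 in RES against CON. Between SUS and RES, edgeR and DESeq2 both called 0 members, with 0% of all genes called by edgeR, and 6 members had an unadjusted p under 0.05 against 3.66% of all genes. Hist1h3f (1.36 ± 0.55) and Hist1h1c (0.71 ± 0.30) had the smallest p, both at adjusted p = 0.999.

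Whether the SUS effect in Ly6C-high monocytes differed from the mean effect in the other 3 cell types was tested as an interaction over all 68 libraries. Interactions were called where the adjusted p was under 0.05, with no threshold on the fold change. The SUS effect differed for 2 of 60 members, both higher, against 7.4% of all 24248 genes and 4.84% higher. An unadjusted p under 0.05 was found for 13 members, against 20.9% of all genes. The difference was 1.28 ± 0.35 on the log2 scale for Hist4h4 (adjusted p = 0.0158) and 1.1 ± 0.36 for Hist1h1c (adjusted p = 0.0465). For Hist4h4 the SUS effects elsewhere were 0.22 in T cells, 0.21 in B cells and 0.24 in Ly6C-low monocytes, and for Hist1h1c they were 0.25, −0.41 and 0.70. Without SUS library 14, 0 members passed, without SUS library 17, 6 did, without Ly6C-high CON library 1, 5 did, and without Ly6C-low CON library 24, 4 did. Leaving out Ly6C-high CON library 4, 7, 10 or 16, or Ly6C-low CON library 21, 29 or 32, gave 1. For RES, edgeR and DESeq2 called 0 members, edgeR with 60 tested and 2.82% of all genes called, and 5 had an unadjusted p under 0.05 against 18.5%. Hist1h2an (4.72 ± 1.94, adjusted p = 0.153) and Hist1h4b (−3.42 ± 1.56, adjusted p = 0.212) had the smallest p.

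In Ly6C-low monocytes no member passed. Summed CPM was 316 ± 130 in CON (n = 4), 492 ± 168 in SUS and 515 ± 113 in RES (SD, n = 6 each), which overlap. Against CON, edgeR called 0 of 52 members in SUS (0.0871% of all genes) and 0 in RES (0.0154%), and DESeq2 called 1 (0.522% of all genes) and 0. An unadjusted p under 0.05 was found for 7 members in SUS (9.51% of all genes) and 8 in RES (9.67%), all above 0. The H3 gene Hist1h3e had the smallest p in both, with 1.48 ± 0.47 in SUS (adjusted p = 0.258) and 1.22 ± 0.47 in RES (adjusted p = 0.388). Hist1h3c in SUS (3.48 ± 1.52, adjusted p = 0.447) and Hist1h2bn in RES (1.40 ± 0.59, adjusted p = 0.421) came next. Between SUS and RES, 0 members were called by either tool (0% of all genes) and 0 had an unadjusted p under 0.05 (3.79%), with Hist1h3a (−1.49 ± 0.75) and Hist2h2ab (−3.24 ± 1.71) at adjusted p = 1.

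B cells had high histone levels and no called difference. Summed CPM was 1670 ± 865 in CON and 1352 ± 306 in SUS (SD, n = 6 each), and 1170 ± 269 in RES (SD, n = 5). Against CON, 0 of 56 members were called by edgeR or DESeq2 in SUS (0.00568% of all genes) and in RES (0%), and between SUS and RES likewise 0 (0%). The members with an unadjusted p under 0.05 numbered 0 in SUS (3.42%), 4 in RES (3.18%), all below 0, and 0 between SUS and RES (1.36%). These were Hist1h1e (−0.66 ± 0.27), Hist1h1d (−0.83 ± 0.36), Hist1h4c (−0.40 ± 0.18) and Hist1h1c (−0.60 ± 0.28), at adjusted p = 1. In SUS the smallest p were of Hist1h1a (−0.65 ± 0.33) and Hist1h3f (−0.39 ± 0.25), at adjusted p = 0.999, and between SUS and RES of Hist1h2an (2.31 ± 1.34) and Hist1h4m (0.47 ± 0.28), at adjusted p = 1.

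In T cells, histone genes lay above CON in both stressed groups without passing the main test. Summed CPM was 845, 1045 and 1109 in CON (lowest, median, highest), 651, 1521 and 2447 in SUS and 837, 1366 and 1464 in RES. SUS libraries lay on both sides of CON, with library 57 highest and library 60 lowest. For SUS against CON, edgeR called 0 of 58 members and 0.0265% of all genes, whereas 23 members had an unadjusted p under 0.05 against 4.8% of all genes, all above 0, and DESeq2 called 12 (0.325% of all genes). Without SUS library 60, edgeR called 6, and without SUS library 69, 4. The median log2 fold change was 1.13 over members and 0.00 over all genes. The H2B gene Hist1h2bn measured 6.36, 7.81 and 11.3 CPM in CON and 10.5, 19.9 and 37.4 CPM in SUS (1.27 ± 0.26, adjusted p = 0.0613), and Hist1h2bj had 1.55 ± 0.37 (adjusted p = 0.165).

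For T cell RES against CON, edgeR and DESeq2 called 0 of 58 members and edgeR 0% of all genes, and 16 had an unadjusted p under 0.05 against 4.11%. Hist1h2bm measured 0.915, 1.91 and 5.27 CPM in CON and 9.32, 5.27, 9.74, 9.64 and 6.51 CPM in the 5 RES libraries (1.84 ± 0.48, adjusted p = 0.63). Hist1h3d had 1.44 ± 0.40 (adjusted p = 0.633). For 7 members every RES library exceeded the highest CON library, namely Hist1h2bg, Hist1h2bk, Hist1h2bl, Hist1h2bm, Hist1h2bn, Hist1h3a and Hist1h3e, against 0.615% of all genes, but for Hist1h2bm the gap between the groups was smaller than the rounding of the values above. Between SUS and RES, 0 members were called by either tool (0% of all genes) and 0 had an unadjusted p under 0.05 (2.39%). Hist1h4j (0.91 ± 0.52) and Hist1h2br (0.93 ± 0.54) had the smallest p there, at adjusted p = 1. Rn7sk had a log2 fold change of −0.14 and Rpph1 −0.38 in T cell SUS, and red cell markers were called in 0 of 7 genes by edgeR or DESeq2, 5 with an unadjusted p under 0.05, at a median of 0.84.

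Among 17 genes whose products transcribe or cut histone RNA, none rose in Ly6C-high monocytes of SUS mice. By edgeR and by DESeq2 0 were called in SUS against CON, 5 had an unadjusted p under 0.05, near the 26.5% of all genes, and the median was −0.03. NPAT, the coactivator that cyclin E and CDK2 act on at histone loci, had a log2 fold change of −0.92 ± 0.27 in SUS (Npat, adjusted p = 0.0243, under the fold threshold) and fell by 1.1 on the log2 scale in RES (adjusted p = 0.0245). Npat CPM was 13.1 to 29.5 in CON, 6.89 to 14.6 in SUS and 4.75 to 14 in RES. The stem-loop binding gene Slbp measured 0.11 ± 0.17. Casp8ap2, whose product FLASH takes part in the cutting at histone locus bodies, had −0.90 ± 0.30 in SUS (adjusted p = 0.0458, under the fold threshold) and an interaction of −0.94 (adjusted p = 0.0248). Between cell types few of these genes were called. Only Cpsf2 (1.45) was called between B and T cells, higher in B cells, where 20.2% of all genes were called. Only Ccne1 (−3.57) and Cstf2 (−1.05) were called between monocytes and lymphocytes, lower in monocytes, where 32.1% of all genes were called and 14% lower.

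Of 23 S phase genes tested in Ly6C-high monocytes, 1 rose in SUS, where 3.45% of all genes were called and 2.28% called higher. It was Mcm5 (1.33 ± 0.35, adjusted p = 0.0139), a subunit of the replicative helicase, with 2.94 to 10.8 CPM in CON and 9.2 to 36.8 in SUS. The median over the 23 genes was 0.44. Of 16 mitosis genes, 0 were called in that comparison by edgeR or DESeq2 and 1 had an unadjusted p under 0.05, against 26.5% of all genes. In T cell SUS, 1 of 24 S phase genes rose, Rrm2 (2.15 ± 0.34, adjusted p = 0.00338), a subunit of ribonucleotide reductase, where 0.0265% of all genes were called. By edgeR, Lig1 (0.64), Cdc6 (1.23), Uhrf1 (1.31), Tyms (0.80), Mcm5 (0.44), Pole (0.76) and Mcm4 (0.26) had an unadjusted p under 0.05. That p was reached by 4.8% of all genes, and their adjusted p was 0.505 or more. The S phase genes summed to 528 to 647 CPM in CON, 604 to 930 in SUS and 594 to 807 in RES. Of 16 mitosis genes there 0 were called by edgeR and 3 by DESeq2, 14 had an unadjusted p under 0.05 against 4.8% of all genes, and their summed level was 52.2 to 111 CPM in CON, 99 to 470 in SUS and 147 to 198 in RES. Mki67, a marker of cycling cells, had 1.76 ± 0.37 (adjusted p = 0.165). Between unstressed monocytes and lymphocytes, 13 of 24 S phase genes were lower in monocytes and 2 higher (median −1.22), where 32.1% of all genes were called and 14% lower, with Ung (−3.86), Prim1 (−2.65), Mcm2 (−2.55) and Pole (−2.29) the lowest named. Ly6C-high monocytes had 9 of 24 lower than Ly6C-low monocytes, where 11.2% of all genes were called in either direction, Prim1 (−3.21), Lig1 (−2.36), Mcm5 (−2.16) and Mcm6 (−1.67) among them, although their histone genes were higher where called. Mitosis genes did not follow 1 direction. Mki67 was higher in monocytes than in lymphocytes (2.44, adjusted p = 2.61e-08) and lower in B than in T cells (−2.69), whereas Aurkb was higher in Ly6C-high than in Ly6C-low monocytes (2.67) and in B than in T cells (2.15).

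Histone variants that are made outside S phase from polyadenylated RNA had a summed level of 834 to 1067 CPM in Ly6C-high CON, 1135 to 1453 in SUS and 1066 to 1349 in RES. Of 10 tested, 0 passed both thresholds in SUS by edgeR or DESeq2 and 5 had an unadjusted p under 0.05, against 26.5% of all genes. H2afz, the gene of H2A.Z, measured 0.65 ± 0.13 (adjusted p = 0.00335). The SUS interaction, called on the adjusted p alone, passed for H2afv (0.68), H2afz (0.59) and H3f3a (0.43). Between cell types, H2afz was higher in Ly6C-high than in Ly6C-low monocytes (1.22). Between monocytes and lymphocytes the variants went both ways, where 32.1% of all genes were called. H1f0, the linker variant of resting cells (3.41), and H2afy2 (7.20) were higher in monocytes, whereas Cenpa (−2.01), H2afv (−1.81) and H2afx (−1.20) were lower. Of 14 histone chaperone genes, 1 fell in SUS, Atrx (log2 fold change −1.07, adjusted p = 0.011), and the same gene fell in RES (−1.19, adjusted p = 0.0179). Of all genes, 3.45% were called in SUS and 0.997% in RES, in either direction. Chaf1b, a subunit of the chaperone CAF-1 at replication forks, was lower in monocytes than in lymphocytes (−1.24) and in B than in T cells (−1.43).

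Of the 3 members known for polyadenylated transcripts, 2 rose in Ly6C-high SUS, Hist1h1c and Hist1h2bc, while Hist2h2be did not, with 9.29, 12.7 and 19.7 CPM in CON and 6.21, 10.3 and 14 CPM in SUS. The members of the male germ line, Hist1h1t, Hist1h2aa and Hist1h2ba, had a summed level of at most 0.875 CPM in any library. None of the 3 passed the filter on low counts within a cell type or between unstressed cell types, and Hist1h1t alone entered the interaction fits, where it was not called.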

How the data were processed

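The authors aligned reads of a stranded total RNA kit to mm10 with HISAT2, counted them per gene with HTSeq on Ensembl 90 and deposited raw counts. The strand setting and the treatment of reads with several matches are not given in the sources used here. Symbols and gene types come from GENCODE M21. Members and gene lists were chosen with earlier results of these data known.

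Counts were tested with edgeR 4.0.16 (R 4.3.3; filterByExpr, TMM, robust quasi-likelihood F test, Benjamini-Hochberg adjustment), 1 fit per cell type over CON, SUS and RES, 1 over the CON libraries and 1 over 68 libraries for the interactions. Each SE was derived from its fold change and F statistic. DESeq2 1.42.0 (the study's tool), other scalings, filters and left-out libraries were alternatives. The labels name no mouse, so libraries were treated as independent and p-values measure the spread between these libraries. In the study's methods the blood was stained with antibodies for all 4 cell types together, so libraries of different types may share mice. The tests between cell types and of interactions do not take up such a pairing. No 2 libraries of a group held the same counts. Tested on simulated counts of Ly6C-high SUS against CON (16955 genes), the fit recovered 57% of genes changed by 1.5 on the log2 scale and 88% of those changed by 3. Summed levels are described without a test. In each class the 3 highest members per kilobase were named, in each comparison up to 6 called members with the smallest p or, where none passed, 2, without a stem-loop match those with at least 1 CPM, and in each list its called genes with the largest change, where they bear on the histone genes. The single value of 1 red cell marker is not reported here.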

Additional observations from a re-analysis of the deposited data

Results flagged for a closer look

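Of 68 groups of libraries tested for a value far from the rest, 5 were marked, and chance marks about 1 in 20 groups. In B cell CON, library 38 stood apart in the summed level (3338 CPM) and in Hist1h1c (1673 CPM). It also had the highest share of mitochondrial counts in its group, 18.4%, and 16681 CPM of Rpph1, and the part of either in the histone value was not tested. In Ly6C-high CON, library 13 was the lowest for Hist4h4 (3.23 CPM) and library 10 the highest for Hist1h3c (2.96 CPM). In T cell CON, library 68 was the highest for Hist1h2bf (5.6 CPM).

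The SUS effect differed between Ly6C-high monocytes and the mean of the other cell types for Hist4h4 (a difference of 1.28 on the log2 scale) and Hist1h1c (1.1), by the edgeR interaction test. These were 2 of 60 members, where 7.4% of all genes were called and 4.84% called higher. Neither passed when SUS library 14 was left out.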

How the results depend on the processing

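No paired analysis was possible because the labels name no mouse and no library number is shared between groups. For Ly6C-high SUS against CON, 15 members were called. The count was 0 with the red cell covariate and 1 with the covariate of Rn7sk, Rmrp and Rpph1, both chosen after seeing the data, and 3 to 25 when 1 library was left out. The other settings gave 10 to 18. For Ly6C-high RES against CON the count of 0 became 1 with DESeq2, with the adjusted p alone and with the 2 groups alone, and was 0 to 1 with a library left out. DESeq2 called 1 member in Ly6C-low SUS. In T cell SUS the count of 0 became 12 with DESeq2, 2 without the filter on low counts, 3 with the covariate of Rn7sk, Rmrp and Rpph1, and 0 to 6 with a library left out. Between Ly6C-high and Ly6C-low monocytes 8 became 32 with all 68 libraries and 7 to 16 with a library left out. Between B and T cells the latter range was 5 to 11, and between monocytes and lymphocytes 35 to 43. The SUS interaction of 2 became 1 with DESeq2 size factors or without the filter, and 0 to 6 with a library left out. Except where the setting used fewer or more libraries or genes, the cause was not tested. Without Hist1h1c, summed CPM fell to 388 in Ly6C-high CON, 616 in Ly6C-high RES, 299 and 316 in Ly6C-low SUS and RES, 788 and 675 in B cell SUS and RES, and 561 and 756 in T cell CON and RES. Of 1361 alternatives for 50 log2 fold changes of named members, 1304 kept direction and side of the threshold, 46 lost the call, 11 gained it and 0 reversed. Depth limits what can be seen for the 11 members with counts that stayed under 1 CPM in every group.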
